A study of Mus musculus with 31 samples.

Results

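Skin of C3H/HeJ mice was compared after 12 weeks of treatment with jak1i, a topical JAK1 inhibitor known here only by that code, and after 12 weeks of PBS, the vehicle arm. The comparison uses the arrays titled for J1 and for PBS at 12 weeks, 3 of each, which makes 6 of the 31 arrays of the series. All mice had established AA, read here as alopecia areata, when treatment began, and neither the dose nor the identity of the compound is given in the sources used here. Arrays of the same arms before treatment (0 weeks) and at 6 weeks, and of jak3i (a JAK3 inhibitor by its code) at 12 weeks, 3 each, were used for further contrasts. The other arrays, jak3i at 0 and 6 weeks (3 each) and both inhibitors at 24 weeks (2 each), entered only the shared fit and the values given over all arrays or over those outside the comparison. Replicates are biological by the series text, which does not say if a mouse was sampled more than once, so p-values measure only the spread between these samples.

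Alopecia areata is an autoimmune loss of hair in which cytotoxic CD8+ T cells that carry the activating receptor NKG2D gather around growing hair follicles, and C3H/HeJ is a strain in which it arises spontaneously. JAK1 is a kinase bound to the receptors of interferon-γ, of the type I interferons and of the cytokines that share the common γ chain, such as IL-2, IL-7 and IL-15. On binding of the cytokine it helps to phosphorylate STAT transcription factors, which then switch on target genes through short promoter elements named ISRE and GAS.

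Values are log2 expression levels as normalized by the authors, 1 probe set for each of 18193 genes, and a difference is J1 minus PBS at 12 weeks on that log2 scale with its standard error (SE). A gene is said to have risen or fallen where limma gave a Benjamini-Hochberg adjusted p under 0.05 over all genes. By that rule 2431 genes differed (13.4%), of which 1246 (6.85%) were higher and 1185 (6.51%) were lower under J1, and the median difference of all genes was −0.03. The 3 values of one group lay wholly above or below those of the other in 6591 genes (36.2%), among them 2396 of the 2431. Among probe sets assigned to no gene or to several, 373 of 10092 (3.7%) differed. The arrays are of skin by their titles. Of 14 keratinocyte and dermal fibroblast genes that define skin, such as Krt10 and Lor, 0 passed (median −0.04), which does not show equal skin content. The counts rest heavily on PBS replicate 3, without which 597 genes differed, and a gene group below is therefore given with its count without that array.

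Skeletal muscle transcripts were the largest difference between the groups. Ttn, the giant elastic protein of the sarcomere, measured 12.09, 13.16 and 13.04 under J1 against 5.19, 8.60 and 6.96 in PBS at 12 weeks, a difference of 5.84 (SE 0.65, adjusted p 5.4e-05). The groups did not overlap, and the low side was PBS at 12 weeks: PBS at 6 weeks read 12.94, 11.55 and 12.18. Neb, the ruler protein of the thin filament, differed by 6.09 and Myot, a protein of the Z disc, by 5.88. Smpx (5.61), Klhl41 (5.50), Tnnt3 (5.50), Myh4 (5.45), Myh2 (5.42), Mybpc2 (5.37), Apobec2 (5.25), Cmya5 (5.18) and Myom2 (5.15) complete the 12 largest rises of all genes, and of the 12 Myh4 alone lost its call when single arrays were left out.

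Of 80 measured genes of sarcomere, contraction and muscle energy use, 64 rose and 1 fell, with a median of 3.89. Acta1, skeletal actin, was 22-fold higher (difference 4.46, SE 0.55, adjusted p 9.1e-05), and Ckm, muscle creatine kinase, differed by 4.96, whereas the slow myosin Myh7 read 9.04, 5.17 and 5.35 against 4.84, 6.75 and 5.17 and did not pass (adjusted p 0.75). The 1 member that fell was Tpm3, a tropomyosin also made outside muscle, with −0.39 (SE 0.12), a call lost without any 1 of the 6 arrays. The mean of the muscle list, relative to the mean of the 31 arrays, was −3.72, −2.19 and −3.0 in PBS at 12 weeks and lay between −0.69 and 1.38 in all 25 arrays outside the comparison. The J1 arrays, at −0.09, 0.91 and 0.73, lay within that range. With PBS at 6 weeks as the control the list's median was 0.55 and 0 of its genes passed. In whole skin, fewer cells of a type and less RNA per cell cannot be told apart, and neither can the depth of the sample.

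**Figure D1:**
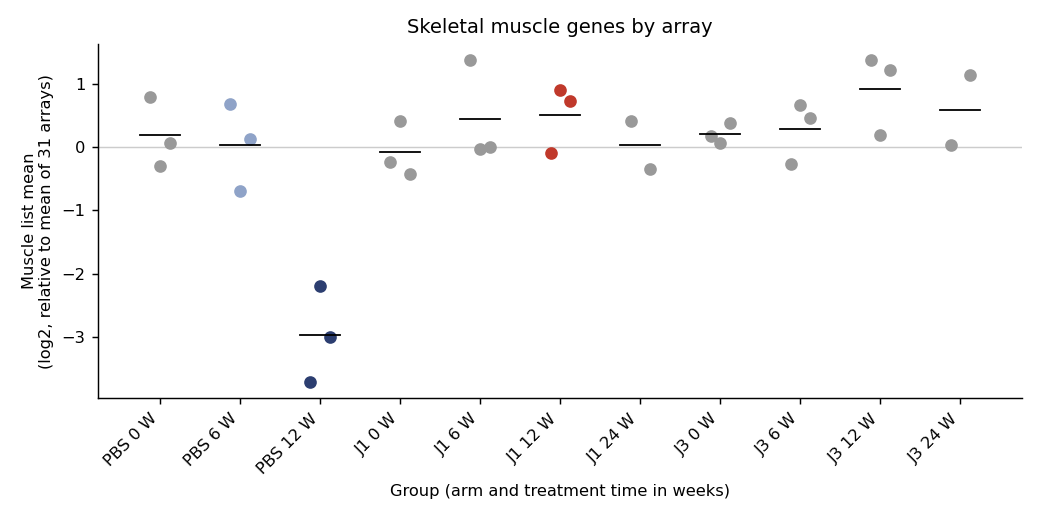
Mean of the muscle list in each of the 31 arrays (log2, relative to the mean of all arrays), by group. The 3 PBS arrays at 12 weeks lie at −3.72, −2.19 and −3.0, below every other array.

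To set muscle apart from skin, genes were put in a muscle-tracking set where they belonged to the muscle list or where their level followed the list's mean (Pearson r of 0.7 or more) over the 25 arrays outside the comparison. The set held 541 genes, 461 of them outside the list, and 287 (53%) differed, 286 higher and 1 lower, with a median of 0.87. Just inside the threshold lay Hddc3 (r 0.704, difference 0.59), Ppp1r1a (0.705, 1.95) and Ddit4l (0.706, 2.21), and just outside lay Svil (0.70, 0.88), Nfatc1 (0.699, 0.97) and Eepd1 (0.699, 1.09). Among the other 17652 genes 2144 (12.1%) differed, 960 higher and 1184 lower, and 294 and 411 of these by at least 2-fold.

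The set takes in a high positive r alone, so a gene that follows muscle inversely could not enter it by its r. Genes that fell outside the set had a median r of −0.33 with the muscle mean, and 1090 of the 1184 had an r of 0 or less. Genes that rose outside it had a median r of 0.46: 381 had an r of 0.5 or more, and only 27 had an r of 0 or less, against a median of −0.03 over all genes. So a rise outside the set may still share part of its pattern with muscle, and a fall may share it inversely. Neither share was tested. With the muscle mean as a covariate, 1 gene passed, with standard errors 1.88 times as large at the median. As the PBS arrays at 12 weeks lay below all others in that mean, a fit with this covariate cannot separate muscle from treatment.

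**Figure D2:**
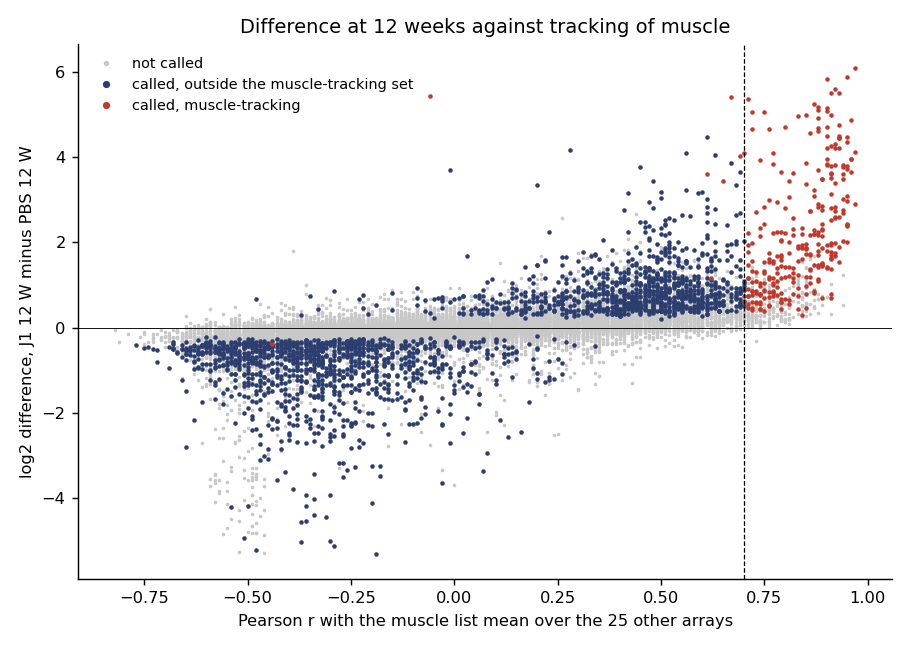
Each point is 1 of 18193 genes, with its Pearson r with the muscle list mean over the 25 arrays outside the comparison on the horizontal axis and its log2 difference between J1 and PBS at 12 weeks on the vertical axis. Red points are called genes of the muscle-tracking set, of which 286 are higher, blue points are the 2144 other called genes, grey points are not called, and the dashed line marks an r of 0.7.

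Cytotoxic lymphocyte genes were lower under J1. Gzma, a granzyme that cytotoxic cells release into their targets, measured 5.60, 7.39 and 5.38 under J1 against 11.03, 9.49 and 11.53 in PBS, a 23.7-fold lower level (difference −4.57, SE 0.71, adjusted p 6.2e-04). Gzmb, the granzyme that activates caspases, measured 4.76, 6.18 and 4.91 against 9.75, 8.55 and 10.77 and was 21.3-fold lower. In both genes the groups stood apart, J1 replicate 2 was the highest of its group and PBS replicate 2 the lowest of its own. Of 20 genes of granules and transcription factors of cytotoxic cells 13 fell and 0 rose, with a median of −1.06, against falls in 6.51% of all genes. Fasl, the death ligand, changed by −1.97, Nkg7, a granule membrane protein, by −1.73, and Tbx21, the transcription factor T-bet, by −1.47. Prf1, the pore former perforin, read 6.32, 6.62 and 6.45 against 7.18, 6.60 and 7.06, so that the groups overlapped and it did not pass (adjusted p 0.123). Without PBS replicate 3, 5 of the 20 passed, and Tbx21 was no longer called.

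Genes of the T cell receptor complex and the CD8 coreceptor fell as well. Cd8b1, a chain of the coreceptor of cytotoxic T cells, measured 4.38, 4.95 and 4.72 against 7.49, 7.04 and 7.70 (difference −2.73, SE 0.38, adjusted p 2.4e-04). Its partner Cd8a measured 5.69, 6.41 and 6.13 against 8.03, 7.54 and 8.24 (−1.86, SE 0.29, adjusted p 7.2e-04). Both sets of values were well separated, whereas Cd4, the coreceptor of helper T cells, read 6.50, 6.50 and 6.36 against 6.58, 6.63 and 6.40 and did not pass (−0.08, adjusted p 0.71). Of 20 genes of the receptor complex and its proximal signalling 9 fell and 0 rose (median −0.65, 6 falls without PBS replicate 3), among them Cd3d (−1.23), a chain of CD3, Cd2 (−1.29) and the adaptors Lcp2 (−1.51) and Lat (−0.86).

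Of 18 genes of natural killer cell receptors, their adaptors and ligands of NKG2D 7 fell and 0 rose (median −0.49, 3 falls without PBS replicate 3). Klrk1, which encodes NKG2D, measured 5.72, 5.99 and 5.24 against 7.08, 7.09 and 7.87 (−1.70, SE 0.32, adjusted p 0.00277). Klrd1 and Klrc1, the chains of the CD94/NKG2A receptor, changed by −1.91 and −2.85. No value of a J1 array in these 3 genes reached the lowest PBS array. Among 19 genes of regulatory T cells and checkpoints 5 fell and 1 rose (median −0.53): Pdcd1lg2 (−2.78), Icos (−1.37), Havcr2 (−1.29), Pdcd1 (−0.94) and Lag3 (−0.40) fell and Ikzf2 rose by 1.29. Foxp3, which defines regulatory T cells, read 4.15, 4.01 and 4.13 against 4.35, 4.14 and 4.28 and did not pass, nor did the checkpoint genes Cd274 (−1.32) and Ctla4 (−0.60). With PBS replicate 3 left out, 2 of the 19 passed as lower, and Pdcd1lg2 (adjusted p 0.0173 with all arrays), Pdcd1, Lag3 and Ikzf2 were no longer called.

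Chemokines that recruit T cells were among the deepest falls. Cxcl9, Cxcl10 and Cxcl11 are interferon-induced ligands of the T cell receptor CXCR3. Cxcl9 measured 8.69, 10.70 and 6.68 under J1 against 12.62, 12.08 and 13.45 in PBS (−4.02, SE 1.07, adjusted p 0.0177). Cxcl10 measured 7.11, 8.97 and 5.49 against 10.65, 10.61 and 12.09 (−3.93, SE 1.01, adjusted p 0.015), and Cxcl11 6.19, 8.51 and 5.69 against 11.27, 10.69 and 12.05 (−4.54, SE 0.97, adjusted p 0.00562). The J1 arrays spread widely, replicate 2 highest and replicate 3 lowest, yet all lay under the PBS arrays. With the receptor gene Cxcr3 (−0.86) all 4 genes of this axis fell, and Cxcl11 alone kept its call without any 1 of the 6 arrays.

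Ccl5, a chemokine that draws T cells, measured 6.65, 7.82 and 6.69 against 10.61, 10.01 and 11.31, a 12-fold lower level (−3.59, SE 0.47, adjusted p 1.5e-04) with no overlap. Of 28 other chemokine ligands, Ccl5 included, 9 fell and 1 rose (median −1.36). Those that fell include Cxcl5 (−3.36), a neutrophil attractant, the monocyte attractants Ccl2 (−2.47) and Ccl12 (−2.56), Ccl1 (−2.41) and Cxcl16 (−1.45), the ligand of CXCR6, and Ccl27a, a chemokine of keratinocytes, rose by 0.49. Of 17 chemokine receptors 8 fell and 0 rose (median −0.55), led by Ccr1 (−3.52), Ccr2 (−2.23) and Cxcr6 (−2.19). Once PBS replicate 3 was dropped, 3 ligands and 4 receptors passed as lower, and Cxcl9, Cxcl10, Cxcr3, Cxcl5, Ccl2, Ccl12, Ccl27a and Ccr2 were no longer called.

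The promoters of 5 interferon-responsive genes are shown because their elements are those that STATs and interferon regulatory factors bind. They run from 250 bases before to 50 after the start site in RefSeq on GRCm38.p6, 5′ to 3′ along the gene, and capitals mark matches on either strand to the ISRE core GAAANNGAA, or in Irf1 to the GAS element TTCNNNGAA. Windows of Oasl2, Ifi47, Ubd, Tap1, Psmb9 and Cd8a, all of which fell, and a second window each of Irf1 and Gbp3 were searched too and held no match to either motif, which says only that these letters are not in those windows. The windows shown are thus examples with a match, and the shares over whole lists follow them. The match begins at position −175 relative to the start in Cxcl9, at −213 in Cxcl10 and at −90 in Irf1. Overlapping matches are joined into a longer run of capitals in Gbp3 and Ifit1.
Cxcl9, chr5:92328030-92328329, minus strand: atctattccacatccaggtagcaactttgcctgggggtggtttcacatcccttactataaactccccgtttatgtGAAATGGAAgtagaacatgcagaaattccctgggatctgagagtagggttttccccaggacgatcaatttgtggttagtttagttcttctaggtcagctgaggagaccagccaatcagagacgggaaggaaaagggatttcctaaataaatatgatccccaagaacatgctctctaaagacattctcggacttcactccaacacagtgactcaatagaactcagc
Cxcl10, chr5:92348840-92349139, minus strand: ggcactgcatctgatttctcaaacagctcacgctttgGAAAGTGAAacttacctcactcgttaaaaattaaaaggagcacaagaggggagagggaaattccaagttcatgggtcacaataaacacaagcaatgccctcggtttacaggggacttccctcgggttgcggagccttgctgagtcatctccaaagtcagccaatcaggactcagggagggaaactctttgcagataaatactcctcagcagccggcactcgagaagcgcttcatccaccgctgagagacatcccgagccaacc
Irf1, chr11:53769764-53770063, plus strand: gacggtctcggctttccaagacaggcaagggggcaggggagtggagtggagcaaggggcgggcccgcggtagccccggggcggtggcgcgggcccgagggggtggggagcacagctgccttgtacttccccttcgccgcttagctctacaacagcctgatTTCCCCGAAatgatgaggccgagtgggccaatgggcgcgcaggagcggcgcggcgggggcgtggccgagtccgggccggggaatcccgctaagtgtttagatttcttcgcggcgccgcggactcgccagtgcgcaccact
Gbp3, chr3:142559794-142560093, plus strand: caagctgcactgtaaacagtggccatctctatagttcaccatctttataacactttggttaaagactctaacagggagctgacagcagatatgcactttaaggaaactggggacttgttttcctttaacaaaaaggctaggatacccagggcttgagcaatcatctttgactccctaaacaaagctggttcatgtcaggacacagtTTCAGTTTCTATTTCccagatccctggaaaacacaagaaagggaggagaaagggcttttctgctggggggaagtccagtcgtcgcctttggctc
Ifit1, chr19:34640639-34640938, plus strand: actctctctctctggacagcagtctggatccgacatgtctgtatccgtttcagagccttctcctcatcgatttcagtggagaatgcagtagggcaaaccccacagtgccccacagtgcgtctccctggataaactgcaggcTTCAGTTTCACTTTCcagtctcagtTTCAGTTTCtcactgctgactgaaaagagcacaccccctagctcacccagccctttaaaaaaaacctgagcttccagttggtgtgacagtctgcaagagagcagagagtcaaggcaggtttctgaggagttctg
A match is a description and not a binding site. Of 14452 tested genes with a window, 8.7% held an ISRE match and 8.57% a GAS match. Among 18 genes of the type I interferon list with a window these shares were 50% and 22.2%, among 12 of the interferon-γ list 50% and 50%, and among 958 genes that fell 12.6% and 10.2%. In the other lists the ISRE share ranged from 0% (16 FGF genes) to 66.7% (3 genes of the CXCR3 axis). The GAS share ranged there from 0% (FGF genes) to 36.4% (11 innate lymphoid genes). A GAS share of 22.2% was thus not particular to interferon genes.

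Most measured targets of interferon-γ fell. Ifng itself, a product of T and NK cells, measured 4.14, 4.50 and 4.30 against 7.18, 7.05 and 8.01 (−3.10, SE 0.60, adjusted p 0.00342) with a clear gap. Of 16 interferon-inducible GTPases and other targets of interferon-γ 13 fell and 0 rose, with a median of −2.18. Gbp8, a guanylate-binding protein, changed by −4.45, Ubd, a ubiquitin-like modifier, by −4.20, Ifi47 by −2.66, Igtp by −2.49 and Gbp3 by −2.24. Irf1, the transcription factor with the GAS match, measured 9.99, 10.16 and 9.04 against 11.22, 11.02 and 11.71 (−1.58, SE 0.38, adjusted p 0.0115). In Irf1 and Gbp8 J1 replicate 3 was the lowest array. In the fit that left out PBS replicate 3, 2 of the 16 passed (median −1.91), and Gbp8, Ubd, Igtp, Gbp3 and Irf1 were no longer called.

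Antiviral genes of the type I interferon response fell in 24 of 27, and 0 rose (median −1.75). Without PBS replicate 3, 17 passed, and with PBS at 6 weeks as the control 1 did. Ifit1, which binds foreign RNA, measured 7.34, 7.60 and 6.83 against 10.07, 9.58 and 10.62 (−2.84, SE 0.55, adjusted p 0.00352). Mx1, an antiviral GTPase, measured 5.64, 5.73 and 5.50 against 8.50, 7.66 and 9.10 (−2.80, SE 0.56, adjusted p 0.00392). The J1 values of both genes were close together and far below PBS. Oasl2 (−3.18), Rtp4 (−2.57), Oas1a (−2.55), Bst2 (−2.51) and the transcription factor Irf7 (−2.18) fell as well, and each of these, with Ifit1 and Mx1, kept its call without any 1 of the 6 arrays.

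Antigen presentation followed. Of 17 genes of MHC class I chains, peptide processing and loading 12 fell and 0 rose (median −0.81, 3 falls without PBS replicate 3). Tap1, the peptide transporter, measured 9.46, 9.48 and 8.84 against 10.58, 10.28 and 10.73 (−1.27, SE 0.27, adjusted p 0.00543), and the immunoproteasome subunits Psmb8 and Psmb9 changed by −1.15 and −1.44 and the class I chain H2-K1 by −1.04. These values did not overlap, whereas B2m, the light chain near the top of the scale, read 13.94, 13.99 and 13.77 against 14.09, 14.16 and 14.14 and did not pass (adjusted p 0.219). Of 12 class II genes 7 fell and 0 rose (median −0.67), including the master activator Ciita (−0.97), H2-Ab1 (−0.91) and the invariant chain Cd74 (−0.81), while the class II chain H2-Aa (−0.46) did not pass. Without PBS replicate 3, 0 class II genes passed, nor did Psmb8, Psmb9 and H2-K1.

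**Figure D3:**
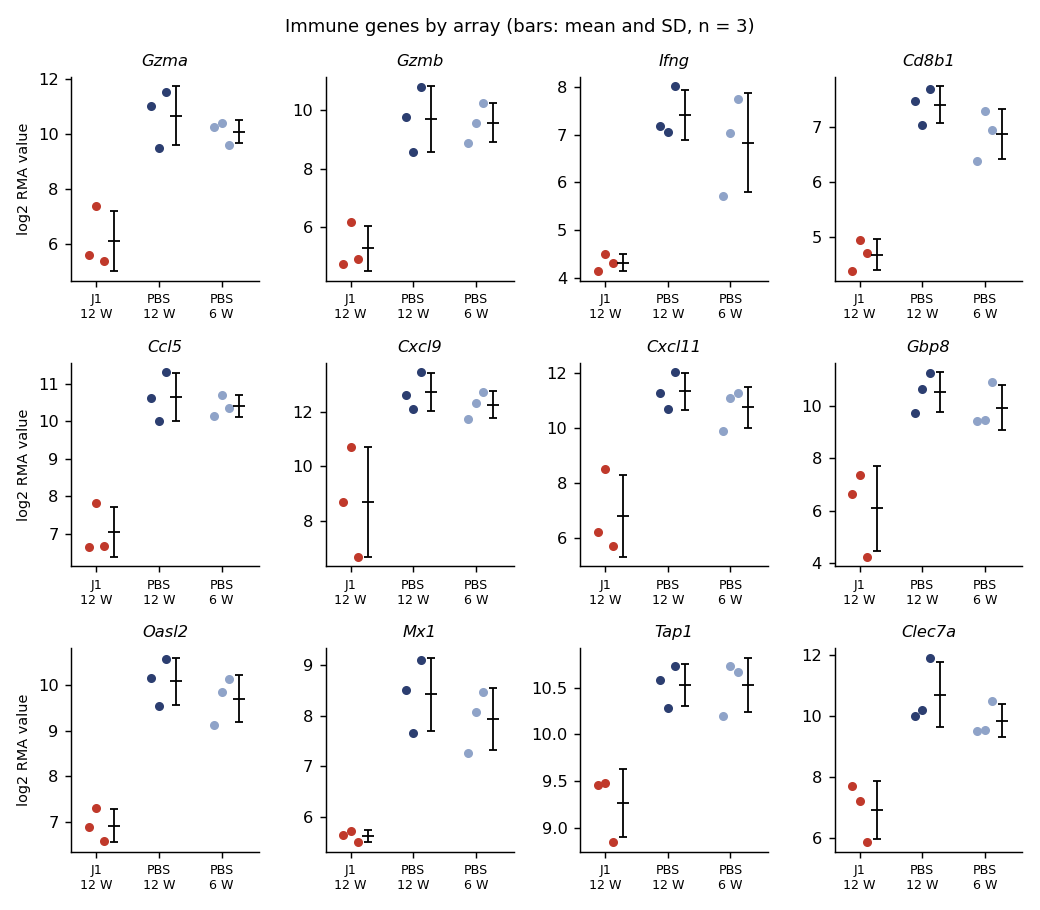
Log2 values of 12 immune genes in the 3 J1 arrays at 12 weeks (red), the 3 PBS arrays at 12 weeks (dark blue) and the 3 PBS arrays at 6 weeks (light blue), with the mean and SD of each group beside its points; the vertical axes do not start at 0 and differ between genes. The J1 values lie below those of both PBS groups in each of the 12 genes.

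Of the signalling machinery itself, no Janus kinase gene passed, whereas 2 STAT genes fell. Jak1 measured 10.44, 10.69 and 10.65 against 10.67, 10.59 and 10.33, with overlapping groups (0.07, SE 0.15, adjusted p 0.819). Jak2 (−0.40), Jak3 (−0.36) and Tyk2 (−0.12) did not pass. Of 10 measured Janus kinases and STATs 2 fell (20%, against falls in 6.51% of all genes) and 0 rose (median −0.15). Those that fell were Stat2, the partner of the type I interferon complex, by −1.68 (SE 0.37, adjusted p 0.0071) and Stat4, which acts below IL-12, by −0.84. Stat3 (−0.19), Stat5a (0.10), Stat5b (0.49) and Stat6 (−0.11) did not pass, and Stat4 was not called without PBS replicate 3.

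Of 15 measured γ-chain cytokines, their receptors and the IL-15 axis 5 fell and 0 rose (median −0.26). The gene of the common γ chain itself was not among those measured. The fallen genes were receptor chains: Il4ra (−1.34), Il2rb (−1.15), which binds IL-2 and IL-15, Il7r (−0.99), Il21r (−0.98) and Crlf2 (−0.58), a receptor chain for TSLP. The cytokine genes did not pass: Il15 read 7.64, 7.25 and 7.40 against 7.18, 7.92 and 7.34, and Il2 (−0.26), Il4 (−0.02), Il7 (−0.03), Il9 (−0.15) and Il21 (−0.14) did not pass, nor did Tslp (0.48). Il15ra, which presents IL-15, did not overlap between groups but did not pass (−0.39, adjusted p 0.273), and Il2ra (−0.26) and Il9r (−0.06) did not pass either. With PBS replicate 3 left out, 0 of the 15 passed.

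Of 20 receptors and ligands of other cytokines that signal through JAK1, the soluble Il22ra2 included, 5 fell and 4 rose (median −0.36). Besides Ifng, the IL-10 receptor chain Il10ra (−1.34), Lif (−0.68), Il27ra (−0.66) and Osm (−0.62) fell. Il31ra, the itch cytokine receptor chain, measured 8.34, 8.95 and 8.97 against 5.08, 6.01 and 5.12 (3.35, SE 0.67, adjusted p 0.00373), with J1 above PBS throughout and an r of 0.68 with muscle. Il22ra2, a soluble receptor that binds IL-22, rose by 2.75, Il6ra by 1.12 and Lifr by 0.82. Of 22 feedback inhibitors and survival genes induced by STATs 5 fell and 3 rose (median −0.03): Bcl3 (−1.53) and Pim1 (−0.57) fell and Bcl6 (0.69), Socs6 (0.78) and Socs7 (0.66) rose. Socs1 read 5.58, 5.71 and 5.53 against 6.42, 5.94 and 6.96 (−0.84, adjusted p 0.0849), and Socs3 (−0.43) and Cish (0.02) did not pass. Once PBS replicate 3 was dropped, Ifng and Il31ra were the only calls left among the receptors and ligands, and 0 of the 22 passed.

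**Figure D4:**
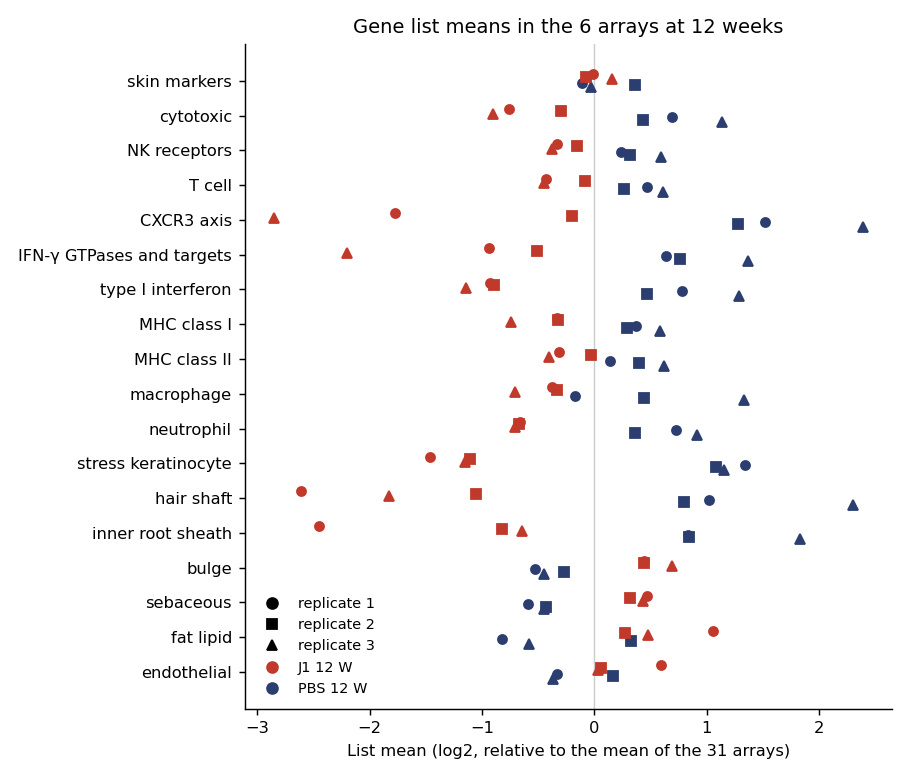
Mean of 18 gene lists in the 3 J1 arrays (red) and the 3 PBS arrays (blue) at 12 weeks, as log2 relative to the mean of the 31 arrays, with the replicate given by the symbol. The interferon and cytotoxic lists are lower in all J1 arrays, the bulge and sebaceous lists are higher in all of them, and PBS replicate 3 stands out in the macrophage and hair shaft lists.

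Myeloid genes differed widely among the PBS arrays. Of 30 macrophage genes 7 fell and 1 rose (median −0.86), but the list's mean was 1.33 in PBS replicate 3 against −0.17 and 0.44 in the other PBS arrays and −0.38, −0.33 and −0.71 under J1. Fcgr1, the high-affinity receptor of IgG, measured 6.13, 6.62 and 6.09 against 8.22, 8.21 and 11.25. Fcgr4, a related receptor, measured 5.29, 5.41 and 5.19 against 8.06, 7.85 and 9.76 (−3.26, SE 0.59, adjusted p 0.00195), and Clec7a, the β-glucan receptor, changed by −3.79. Their groups did not overlap, and Fcgr4 and Clec7a kept their calls without any 1 of the 6 arrays, whereas Fcgr1 lost it without PBS replicate 3. Cd163, the haemoglobin scavenger receptor of tissue macrophages, rose by 2.20, a call lost without J1 replicate 3 or PBS replicate 1, and the pan-macrophage genes Csf1r (−0.38) and Adgre1 (−0.80) did not pass. In the fit that left out PBS replicate 3, 2 macrophage genes fell (median −0.48).

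Of 21 neutrophil and inflammatory myeloid genes 9 fell and 0 rose (median −0.82, 2 falls without PBS replicate 3). The granule protein gene Lcn2 changed by −3.48, the IL-36 gene Il1f6 by −2.68 and the formyl peptide receptor Fpr2 by −2.45. S100a8, an alarmin, read 7.68, 7.78 and 8.67 against 12.81, 10.44 and 10.92, which did not overlap but did not pass (−3.35, SE 1.24, adjusted p 0.0737). Lcn2, Il1f6 and Fpr2 were not called without PBS replicate 3. Of 16 dendritic and Langerhans cell genes 4 fell, of 16 B and plasma cell genes 5 fell and of 14 mast cell genes 0 did, with 0 rises (medians 0.11, −0.35 and 0.08). Without PBS replicate 3 the falls were 1, 3 and 0. The plasma cell coactivator Pou2af1 changed by −1.66, with the highest value, 5.75, in PBS replicate 2. Of 12 markers of innate lymphoid and γδ T cells and type 2 and 17 cytokines 5 fell and 1 rose (median −0.17). The rise was Gata3, also a member of the inner root sheath list, so the list does not mark those cells alone. Without PBS replicate 3, 1 fell. The falls were led by Lta (−1.72) and Il18r1 (−1.30), of which Lta was lost without that array.

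Genes of stressed epidermis included the deepest fall. Krt6b, a keratin of wounded and hyperproliferative epidermis, measured 6.25, 8.22 and 8.55 under J1 against 12.61, 13.86 and 12.55 in PBS, the lowest difference among the genes called (−5.33, SE 1.29, adjusted p 0.0116). Stfa3, a stefin that inhibits cysteine proteases, measured 7.22, 7.09 and 7.73 against 11.67, 11.87 and 10.90 (−4.13, SE 0.78, adjusted p 0.003). All PBS values exceeded all J1 values in both genes. Of 22 genes of stress keratins, small proline-rich proteins and stefins 8 fell and 0 rose (median −2.39), including Krt16 (−3.34), Sprr1b (−5.03) and Sprr2d (−3.66). Of 29 genes of terminal differentiation 5 fell and 1 rose (median −0.36): the late envelope genes Lce3a (−2.72), Lce3f (−2.27), Lce3c (−1.68) and Lce1f (−1.52) and the protease gene Casp14 (−1.62) fell. In a fit to the 6 compared arrays alone 17 stress genes and 10 differentiation genes passed as lower, beside 1046 of all 18193 genes. Without PBS replicate 3, 2 stress genes and 1 differentiation gene passed as lower, and Krt16, Sprr1b, Sprr2d and the Lce genes named were no longer called, while Krt6b was lost without J1 replicate 1 and Casp14 without J1 replicate 2.

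Mmp13, a collagenase of remodelling tissue, measured 3.92, 4.76 and 4.66 against 8.97, 9.59 and 9.84, a 32.4-fold lower level (−5.02, SE 1.05, adjusted p 0.00504) with no overlap. Of 20 metalloproteinases and inhibitors 4 fell and 1 rose (median −0.55), with Timp1 (−3.27) and Adam8 (−1.34) among the falls and Timp3 (0.77) as the rise. Aldh1a3, which makes retinoic acid, measured 5.38, 6.67 and 5.85 against 10.71, 8.79 and 10.98 (−4.19, SE 0.84, adjusted p 0.00382), again with no overlap. Of 24 genes of retinoid synthesis, binding and breakdown 2 fell and 3 rose (median −0.03), and the rise of Aldh1a1 (2.83), a related enzyme, had an r of 0.75 with muscle and is part of the muscle-tracking set. Of 31 collagens and their enzymes Col17a1, a hemidesmosome collagen, rose by 1.0 and Col12a1 changed by −1.14 (median −0.10). Timp1, Adam8, Aldh1a1, Timp3, Col17a1 and Col12a1 were not called without PBS replicate 3.

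Hair shaft genes had lower values under J1, and how many passed depended on the arrays that gave the spread. Of 14 hair shaft keratins 0 passed in the fit to all 31 arrays and 11 in a fit to the 6 compared arrays alone. The median of −3.59 was the same in both fits, and 13 did not overlap, against 36.2% of all genes. Over all 18193 genes the fit to the 6 arrays called 2099, of which 1046 were lower. Krt31, a keratin of the cortex, read 6.26, 7.60 and 6.47 against 9.81, 9.80 and 11.49 (−3.59, adjusted p 0.0995, and 0.0157 by limma on the 6 arrays). Krt86, a keratin of the hair cortex, read 5.66, 8.16 and 5.48 against 10.71, 10.29 and 12.42 (−4.71, SE 1.73, adjusted p 0.072, and 0.0228 on the 6 arrays). Of 35 keratin-associated proteins, which cross-link those keratins, 33 did not overlap and 2 fell (median −4.06): Krtap15 measured 6.64, 8.97 and 5.68 against 11.89, 11.66 and 13.41 (−5.23, SE 1.73, adjusted p 0.0484) and Krtap26-1 changed by −4.21. Both calls were lost when any 1 of the 6 arrays was left out, whereas 20 of the 35 passed as lower in the fit to the 6 arrays alone. The hair shaft list's mean was −2.61, −1.05 and −1.83 under J1 and 1.02, 0.80 and 2.30 in PBS, and among the other 25 arrays it ranged from −3.11 to 3.33.

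With the hair shaft mean as a covariate 465 genes passed, and the medians were −0.92 for cytotoxic genes (5 falls), −2.60 for the CXCR3 axis (1), −1.95 for interferon-γ targets (0), −1.48 for type I interferon genes (14), −1.57 for stress keratinocyte genes (2), 0.51 for bulge genes (1 rise) and 0.41 for fat cell lipid genes (1 rise). With the muscle mean as the covariate none of these genes passed, and the medians in the same order were −0.64, −2.90, −2.24, −1.60, −2.59, 0.28 and 0.13.

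The inner root sheath, the sleeve that guides the growing shaft, did not follow the shaft in every array. Of 15 genes 0 fell and 1, the transcription factor Gata3, rose (0.73, not called without PBS replicate 3), with a median of −2.96. In the fit to the 6 compared arrays 7 of the 15 passed as lower, among them Krt71, a sheath keratin (−3.52, adjusted p 0.097 with all arrays and 0.0283 with the 6). Krt25, a keratin of the sheath, read 8.28, 11.28 and 12.26 against 13.50, 13.34 and 13.87, and Shh, the matrix signal of growing follicles, 5.11, 7.32 and 9.42 against 8.09, 8.30 and 9.0. J1 replicate 3 thus held the highest Shh value of the 6 arrays while its Krtap15 value was the lowest. Of 16 transcription factors and adhesion genes of the matrix 1, Ovol1, fell (−0.96, kept without any 1 of the 6 arrays; median −0.71), against 4 on the 6 arrays alone. Foxn1, a regulator of shaft keratins, read 6.23, 6.36 and 6.08 against 7.50, 7.37 and 7.78 (−1.32, adjusted p 0.158 with all arrays and 0.00946 with the 6), and Hoxc13 (−0.93) did not pass in either fit. Of 30 mitotic genes 0 passed with all arrays and 3 as lower with the 6 (median −0.69), beside 1046 of all 18193 genes. Mki67 read 9.94, 10.04 and 10.91 against 10.86, 10.84 and 11.22. Of 15 melanocyte genes 0 passed, and Dct, an enzyme of melanin synthesis, read 8.41, 9.21 and 10.53 against 8.02, 9.50 and 9.72.

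Some stem cell genes of the follicle bulge rose. Krt15, the keratin that marks bulge stem cells, measured 13.53, 13.58 and 13.54 against 11.90, 11.68 and 11.71 (1.78, SE 0.37, adjusted p 0.00472), with tight and separate groups. Fgf18, a bulge signal that holds follicles in rest, measured 8.37, 8.51 and 7.88 against 4.60, 5.36 and 5.22, a 9.14-fold higher level (3.19, SE 0.69, adjusted p 0.00593). Its 3 J1 values stood above all PBS values. Of 21 bulge genes 8 rose and 0 fell (median 0.74, against rises in 6.85% of all genes), with Krt24 (3.03), the BMP inhibitor Grem1 (2.0), Lhx2 (1.77) and the receptor Lgr6 (1.56) among them. Cd34 read 11.17, 10.79 and 10.79 against 9.39, 10.35 and 9.78 (1.08, adjusted p 0.0551) and Lgr5 8.59, 9.66 and 9.75 against 8.40, 8.43 and 8.15 (1.0, adjusted p 0.0985). With PBS replicate 3 left out, 3 of the 21 passed, Krt15, Krt24 and Fgf18, and the r of these 3 genes with muscle was 0.52, 0.61 and 0.60.

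Of 20 FGF ligands, receptors and feedback genes 6 rose and 0 fell (median 0.06): Fgf18, Fgf13 (2.25, in the muscle-tracking set), Fgfr2 (0.87), Fgfr1 (0.58) and the antagonists Spry1 (0.65) and Spry2 (0.72). Fgf5, the signal that ends hair growth, read 4.24, 3.96 and 4.22 against 5.18, 5.55 and 6.73 and did not pass (−1.68, adjusted p 0.167). Of 34 WNT and BMP genes of the hair cycle 2 rose, Grem1 and Tgfb2 (1.08), and of 20 dermal papilla genes 2 rose, Igfbp3 (2.0) and Prom1 (1.12), with 0 falls and medians of 0.11 and 0.34. These shares of rises, 5.88% and 10%, lay near the 6.85% of all genes. Once PBS replicate 3 was dropped, Fgf18 and Fgf13 kept their calls, and the other genes of this paragraph that rose did not.

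**Figure D5:**
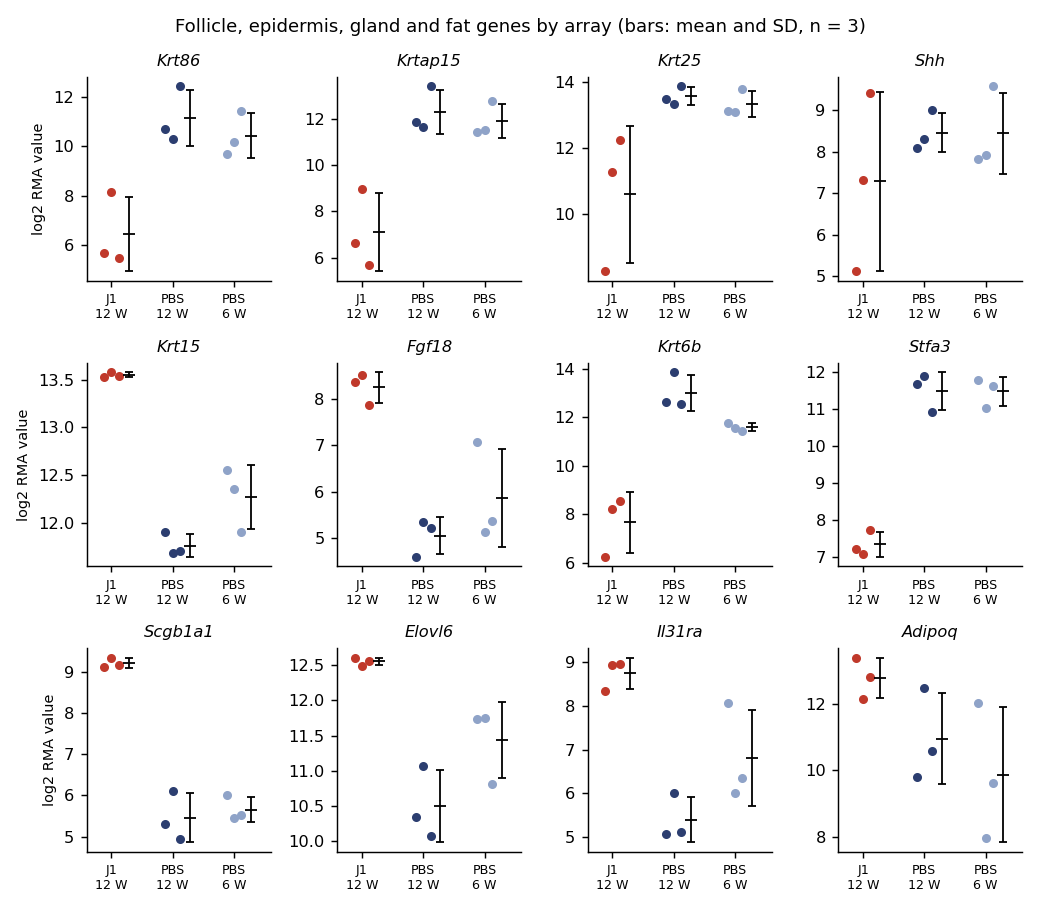
Log2 values of 12 genes of follicle, epidermis, gland and fat in the 3 J1 arrays at 12 weeks (red), the 3 PBS arrays at 12 weeks (dark blue) and the 3 PBS arrays at 6 weeks (light blue), with the mean and SD of each group beside its points; the vertical axes do not start at 0 and differ between genes. Krt15, Fgf18, Scgb1a1, Elovl6 and Il31ra are higher in all J1 arrays, whereas the J1 values of Shh and Adipoq overlap those of PBS.

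Some lipid genes of the sebaceous gland and of fat cells rose under J1. Elovl6, which lengthens fatty acids, measured 12.60, 12.49 and 12.56 against 10.34, 11.07 and 10.08 (2.05, SE 0.37, adjusted p 0.00224). Far2, which makes the fatty alcohols of sebum wax, measured 10.29 ± 0.53 against 7.60 ± 0.36 (mean ± SD, n = 3 each; 2.69, SE 0.57, adjusted p 0.00555). Neither gene overlapped between groups. Of 20 sebaceous gland genes 7 rose and 0 fell (median 0.58), including Scd3 (3.24) and Fa2h (2.64), and of 24 lipid genes of fat cells 6 rose and 0 fell (median 0.97), including Cidea (1.76), Gpd1 (1.31) and the desaturase gene of both lists, Scd1 (0.98), whereas Pparg, the regulator of fat cells, did not pass (1.31, adjusted p 0.119). The mean of the fat cell list was 1.06, 0.27 and 0.48 under J1 against −0.82, 0.33 and −0.58 in PBS, so that it overlapped. On the 6 compared arrays alone 3 fat cell genes passed as higher, beside 1053 of all 18193 genes. Of 10 adipokines 0 rose and 1, Apln, fell (−0.58), although the median was 1.34: Adipoq read 13.37, 12.15 and 12.79 against 9.80, 12.47 and 10.58, with PBS replicate 2 inside the J1 range. In the fit that left out PBS replicate 3, Far2 and Elovl6 were the only sebaceous and fat cell genes that passed.

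Among the secreted and detoxifying genes, Scgb1a1, a secretoglobin, measured 9.11, 9.35 and 9.17 against 5.31, 6.11 and 4.94, a 13.5-fold higher level (3.76, SE 0.65, adjusted p 0.00143). The J1 values were close together and far above every PBS value. Of 24 such genes 7 rose and 1 fell (median 0.86): Slc26a7, an anion transporter, rose by 4.48, Ces1d by 2.95 and Cyp2f2 by 2.42, and Chil1 changed by −2.26. Without PBS replicate 3, Scgb1a1 was the only one of the 24 that passed. The largest rises outside the muscle-tracking set were Slc26a7, Cyp2g1 (4.16), Ctxn3 (4.10), Pdk4 (4.05), which spares glucose, Mylk4 (3.86), Scgb1a1, Myhas (3.71), Tlcd3b (3.65), Ifitm6 (3.45), Il31ra, Hamp2 (3.35) and Scd3. Myhas, a transcript of the myosin heavy chain cluster, read 4.52, 7.96 and 4.95 in PBS, yet its r with muscle was −0.01, so that the threshold on r did not take it in. With PBS replicate 3 left out, Slc26a7, Cyp2g1, Mylk4, Hamp2 and Scd3 were not called. With the muscle mean as a covariate the fitted differences of Slc26a7 (−0.21), Ctxn3 (−0.25), Mylk4 (−1.84), Il31ra (−0.22) and Scd3 (−0.59) were negative. That fit cannot separate muscle from treatment, so these signs are not read as reversals. Against PBS at 6 weeks the difference of Myhas was −0.01.

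The remaining lists held few calls. Of 26 endothelial genes 1, Flt1, fell (−1.59; median 0.45). Of 15 Schwann cell genes 2 rose, Mbp (1.86) and Fa2h (median 0.04), and of 19 clock genes Cry2 rose (0.94) and Bhlhe40 fell (−1.14; median 0.62), while Dbp (0.96) did not pass. Without PBS replicate 3 none of these 5 genes was called.

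With PBS at 6 weeks in place of PBS at 12 weeks, where the muscle mean of the control was 0.68, −0.69 and 0.13, 15 genes differed (0.0824%), 3 higher and 12 lower, with 3151 at an unadjusted p under 0.05. Among the 15 were Ccl5 (−3.35, adjusted p 0.00606), Gzmb (−4.28), Gzma (−3.98), Klrc1 (−2.46), Cd8b1 (−2.20), Cd8a (−1.52), the interferon gene Xaf1 (−1.91), Stfa3 (−4.12) and Scgb1a1 (3.56). The list medians changed less than the number of calls: −0.80 for cytotoxic genes, −3.43 for the CXCR3 axis, −2.22 for interferon-γ targets, −1.48 for type I interferon genes, −0.84 for MHC class I, 0.41 for bulge genes, 1.13 for fat cell lipid genes and −3.37 for hair shaft keratins. The macrophage median was −0.33.

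The difference between J1 and PBS at 12 weeks was also set against that at 6 weeks. Only the muscle genes Ttn (5.60, SE 0.91) and Tnnc2 (4.63, SE 0.76), each with an adjusted p of 0.0328, differed by limma (0.011% of genes), and 1320 genes had an unadjusted p under 0.05. Standard errors were 1.41 times those of the main comparison at the median. J1 minus PBS at 6 weeks was −4.70 for Gzma, −3.59 for Ccl5, −3.99 for Cxcl9, 0.75 for Krt15 and 0.25 for Ttn.

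The change from 0 to 12 weeks under J1 minus that under PBS differed in 1247 genes (6.85%), 544 higher and 703 lower, 1102 of them outside the muscle-tracking set. This contrast shares the 6 arrays and is no independent support. Its largest rises were muscle genes, led by Myh2 (7.68), Neb (6.43) and Myot (6.42), and its largest falls Krt6b (−6.77), Sprr1b (−6.72), Stfa3 (−5.42), Sprr2d (−5.10) and Klk13 (−4.85). It passed for Gzma (−4.14, adjusted p 0.0199), Ccl5 (−3.57), Ifit1 (−3.44), Krt15 (2.47) and Scgb1a1 (4.36), and not for Cxcl9 (−4.25, adjusted p 0.0841) or Fgf18 (3.07, adjusted p 0.0581).

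Against jak3i at 12 weeks, tested directly, 0 genes differed (0%) by limma, with 1087 at an unadjusted p under 0.05. The smallest p belonged to Pgap6 (−1.14), Slfn4 (−3.09) and Prf1 (0.94), all at an adjusted p of 0.277. A p above the threshold does not show that the arms act alike. Set side by side against the same PBS arrays, which both comparisons share, J1 and jak3i gave −4.57 and −5.47 for Gzma, −0.48 and −1.42 for Prf1, −2.84 and −1.56 for Ifit1, −5.33 and −1.82 for Krt6b, and 1.78 and 1.44 for Krt15.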

How the data were processed

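Mouse skin was profiled on 31 Affymetrix arrays. Its total RNA was isolated with Qiagen miRNeasy, per the labels' protocols, and labelled with biotin by the 3′ IVT Express kit of Affymetrix. RMA was run by the authors, per the submitters' processing notes, a method that summarises the probes of a set into 1 value, and the authors deposited log2 values of 45101 probe sets. The RMA version was not given in any source used here. Neither detection calls nor scan dates were used, so batches of scanning were not tested. Values ranged from 2.59 to 14.69, array medians from 6.05 to 6.24, and the number of arrays limits the precision.

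Probe sets took their gene from the platform table where it gave 1 symbol (34958), not where it gave several (932) or none (9211). These covered 18193 genes, and where a gene had several probe sets (9010 genes) the brightest by its mean over all 31 arrays was used. limma 3.58.1 in R 4.3.3 fitted 11 group means to all 31 arrays (20 residual and 2.50 prior degrees of freedom), and comparisons were contrasts between them with Benjamini-Hochberg adjustment over all genes at 0.05. The scripts were tested on simulated data with known changes. Promoter windows came from RefSeq on GRCm38.p6, and figures were drawn with matplotlib 3.10.9.

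The 45 gene lists, the comparison and the fixed genes were chosen with earlier results of these data known. Of 271 genes that the naming rule gave, 175 are named: the 12 largest rises and falls with no overlap, over all genes and outside the muscle-tracking set, members of the lists among the 5 with the largest differences, all measured members of 3 signalling lists, the measured genes of a fixed set, and leading genes of the other contrasts. Some further members were named for their role or for lying near the muscle threshold, after their values were seen. Isg15 was not analysed here. Alternatives were centring, a filter on dim genes, the mean of all probe sets, a trended and robust variance, fitting just the 2 groups compared, a replicate block, leaving out each array, the muscle and hair shaft means as covariates, and PBS at 6 weeks as the control.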

Additional observations from a re-analysis of the deposited data

Results flagged for a closer look

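The difference between J1 and PBS at 12 weeks exceeded that at 6 weeks, by a test of the difference itself in limma, for 2 genes, both of the skeletal muscle sarcomere. For Ttn the 12-week difference minus the 6-week difference was 5.60 (SE 0.91), and for Tnnc2 it was 4.63 (SE 0.76), each with an adjusted p of 0.0328. In both genes PBS fell between 6 and 12 weeks, by 5.30 for Ttn and by 4.53 for Tnnc2. The same kind of test between 12 and 0 weeks passed for 1247 genes. No other result is listed here, since groups of 3 arrays were not screened for outlying samples.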

How the results depend on the processing

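The number of genes called depended on the arrays and covariates, and the causes were not tested. With the muscle mean as a covariate 1 gene passed in the main comparison (0 higher, 1 lower), 0 outside the muscle-tracking set (0 in either direction) and 0 in the change from 0 to 12 weeks. With the hair shaft mean as a covariate these counts were 465 (198 higher, 267 lower), 356 (89 and 267) and 116. With PBS at 6 weeks as the control the main comparison called 15 genes (3 higher, 12 lower), all 15 outside the set. An r of 0.5 in place of 0.7 left 579 higher outside the set. Leaving out single arrays gave 597 to 2940 genes (310 to 1482 higher, 287 to 1458 lower), outside the set 441 to 2674 (154 to 1216 and 287 to 1458), and 276 to 1916 for the change from 0 to 12 weeks; the lowest counts came without PBS replicate 3 at 12 weeks. A fit to the compared arrays only called 2099 genes in the main comparison and 2239 for that change.

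The 2 genes of the contrast with 6 weeks became 8 without dim genes, 0 with the mean of all probe sets, with the compared arrays only, with the replicate block and with the hair shaft covariate, and 0 to 63 without single arrays. The contrast with jak3i called 0 genes throughout. The replicate block called 2173 genes in the main comparison and 1126 in the change from 0 to 12 weeks. Deviations from the group mean in same-numbered J1 and PBS arrays at 12 weeks correlated by 0.0355, −0.302 and 0.0516. Whether the numbers pair samples of the same arm between times was not examined. Centring shifted the median of all genes by −0.05 and moved the share of rises among calls from 51.3% to 42.9%.

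The muscle mean of every PBS array at 12 weeks lay below that of all other arrays, so the muscle covariate is bound up with the comparison itself. Differences fitted with it extrapolate, and a sign turned by it is not read as a reversal. Of 221 genes named, the sign of some turned under an alternative. With the muscle covariate these were Aldh1a1 (−1.61), Cd34 (−0.61), Cry2 (−0.33), Ctxn3 (−0.25), Cyp2f2 (−0.10), Dbp (−1.75), Dct (−0.75), Ddit4l (−0.82), Eepd1 (−0.83), Fgf13 (−0.22), Fgf5 (0.20), Fgfr1 (−0.02), Foxn1 (0.84), Foxp3 (0.20), Hoxc13 (0.77), Il2 (0.14), Il31ra (−0.22), Il7 (0.24), Jak1 (−0.20), Krt31 (0.30), Lgr6 (−0.12), Lifr (−0.19), Lor (−0.01), Mki67 (0.21), Mylk4 (−1.84), Myom2 (−0.06), Nfatc1 (−0.49), Ovol1 (0.03), Pim1 (0.13), Ppp1r1a (−1.34), Scd3 (−0.59), Shh (0.15), Slc26a7 (−0.21), Socs6 (−0.20), Socs7 (−0.13), Stat5a (−0.39), Stat5b (−0.39) and Svil (−0.21). With the hair shaft covariate they were Dbp (−0.15), Fgf5 (0.01), Foxn1 (0.07), Hoxc13 (0.78), Jak1 (−0.15), Krt25 (0.09), Lor (−0.09), Mki67 (0.22), Myh7 (−0.77), Shh (1.45) and Stat5a (−0.22), and with PBS at 6 weeks as the control Cish (−0.26), Il15 (0.16), Il4 (0.13), Il9 (0.07), Krt10 (0.04) and Myhas (−0.01). After centring, Cish was −0.03. Without single arrays the sign changed for Cish (−0.08 to 0.18), Dct (−0.27 to 0.79), Il15 (−0.20 to 0.17), Il4 (−0.13 to 0.08), Il7 (−0.38 to 0.18), Il9r (−0.12 to 0.04), Jak1 (−0.04 to 0.14), Myh7 (−0.33 to 1.60) and Stat5a (−0.02 to 0.17), of which none was called. Among gene counts of the lists, the muscle covariate and PBS at 6 weeks as the control each moved 53 of 53 by over 1.5 times, the hair shaft covariate 49, leaving out 1 array 11 to 46 (46 without PBS replicate 3), the fit to the 6 compared arrays 18, dim genes left out 5, the mean of all probe sets 3, the replicate block 2, and centring and the trended variance 1 each. Among lists other than those of hair, epidermis and fat described with it, the fit to the 6 arrays moved these counts. Falls went from 7 to 4 in natural killer receptors, adaptors and NKG2D ligands, and from 5 to 3 in γ-chain genes. Receptors and ligands of other JAK1 cytokines went from 5 to 2 falls. STAT feedback genes, B and plasma cell genes and the list of innate lymphoid, γδ T cell and cytokine genes each went from 5 to 3. Rises of secreted and detoxifying genes went from 7 to 4. With 3 arrays a group and the signal of dim genes near background, small differences were not resolved.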
